A study of Homo sapiens with 6 samples.

Results

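The mitotic and spindle genes are 40 genes for entry into, passage through and exit from mitosis, picked by gene symbol. No measured value was used to pick them, but earlier results of these data were known. All 40 were found among the 17039 genes of the expression table. Their mRNA was measured by RNA sequencing in 231-BR cells, a brain-seeking variant of the human triple-negative breast cancer line MDA-MB-231, and in MDA-MB-231 cells themselves, with 3 libraries of each line. Both lines were kept in DMEM with 10% fetal bovine serum and penicillin-streptomycin, and the medium of 231-BR cells also held 200 μg/mL G418, a selection antibiotic that MDA-MB-231 cells did not receive. The line and the antibiotic therefore cannot be told apart. Each group is a single cell line grown in culture, and it is not stated whether the parallel replicates were separate cultures, so the p-values measure the spread between these libraries, which may be technical.

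Mitosis is driven by the kinase CDK1 with its cyclins, and cells make most of the mRNAs for the spindle, the kinetochores and the anaphase machinery in G2, just before they divide. Kinetochores are the protein plates that join each chromosome to the spindle, and the spindle checkpoint holds back anaphase until all of them are attached. In tumours these mRNAs are commonly used as a readout of how many cells are dividing. In bulk RNA, fewer cells in G2 and mitosis and less of these mRNAs per cell cannot be told apart.

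Every one of the 40 genes was read at 1 FPKM (fragments per length of transcript, scaled to the size of the library) or more in every library. Together they made up 0.736% to 0.749% of the summed FPKM of a 231-BR library and 0.784% to 0.796% of that of an MDA-MB-231 library, so that the share was lower in all 3 libraries of 231-BR cells. The libraries held 10785 to 11178 genes at 1 FPKM or more. VIM and the keratins KRT8 and KRT18, which these cells are known to express, stood at 174 FPKM or more in every library, and the hormone receptor genes ESR1 and PGR at no more than 1.08 and 0.07 FPKM. CD44 was at 176.88 FPKM or more. Other markers differed between the lines. KRT19 stood at 87.83 to 94.44 FPKM in 231-BR cells and at 2.61 to 3.26 FPKM in MDA-MB-231 cells. ERBB2 stood at 9.61 to 10.23 and at 4.75 to 5.08 FPKM, and EPCAM at 8.34 to 9.31 and at 4.44 to 5.49 FPKM. All 4 leukocyte markers measured stayed under 1 FPKM, as did 4 of 5 endothelial markers and 5 of 6 astrocyte and neuron markers. The exceptions were KDR, with up to 1.64 FPKM, and SYT1, with 5.89 to 6.85 FPKM in 231-BR cells and at most 0.41 FPKM in MDA-MB-231 cells. The read depth is unknown, because the values are FPKM without counts.

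The expression of these genes did not move in 1 direction. In 231-BR cells 24 of the 40 genes were lower, 12 were higher and 4 did not pass the test (limma, adjusted p under 0.05 over all 13465 genes tested). Of all genes tested, 32.9% were lower and 44.4% were higher, and 77.3% were called in either direction, so a call by itself sets no gene apart. Among the 6496 genes whose mean FPKM lay within the range of the 40 genes, 41.1% were lower and 42.9% were higher. Quantile normalization turned the balance of all genes to 4825 higher and 5749 lower, and left 12 higher and 23 lower among the 40. The 4 genes without a call were sensitive to the scaling, as CENPA and KIF11 were called higher with an equal sum of FPKM, and AURKB and PRC1 lower under median-of-ratios scaling. The 40 genes had a median log2 fold change of -0.14, beside 0.08 for all genes tested and 0.01 for genes in the same range of FPKM. With quantile normalization the medians were closer, at -0.11 for the 40 genes and -0.06 for all genes tested.

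Most of the differences were small. Only 5 of the 40 genes passed 1.5-fold, and all of them were lower in 231-BR cells: MYBL2, SPC25, ESPL1, NDC80 and UBE2C. Of all genes tested, 10.9% were lower and 21.0% were higher past 1.5-fold, and among genes in the same range of FPKM 8.59% and 13.1%. By the criterion for a differentially expressed gene (a log2 fold change above 1 or below -1, with both lines at a mean of 1 FPKM or more), MYBL2 alone of the 40 was lower and none was higher, where 1.77% of all genes tested were lower and 6.45% met it in either direction. For 36 of the 40 genes no library of one line fell within the range of the other, as for 78.4% of all genes tested. With 3 libraries against 3, an exact permutation test of a single gene cannot go below p = 0.1, so the calls rest on the fit across all genes.

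**Figure D1:**
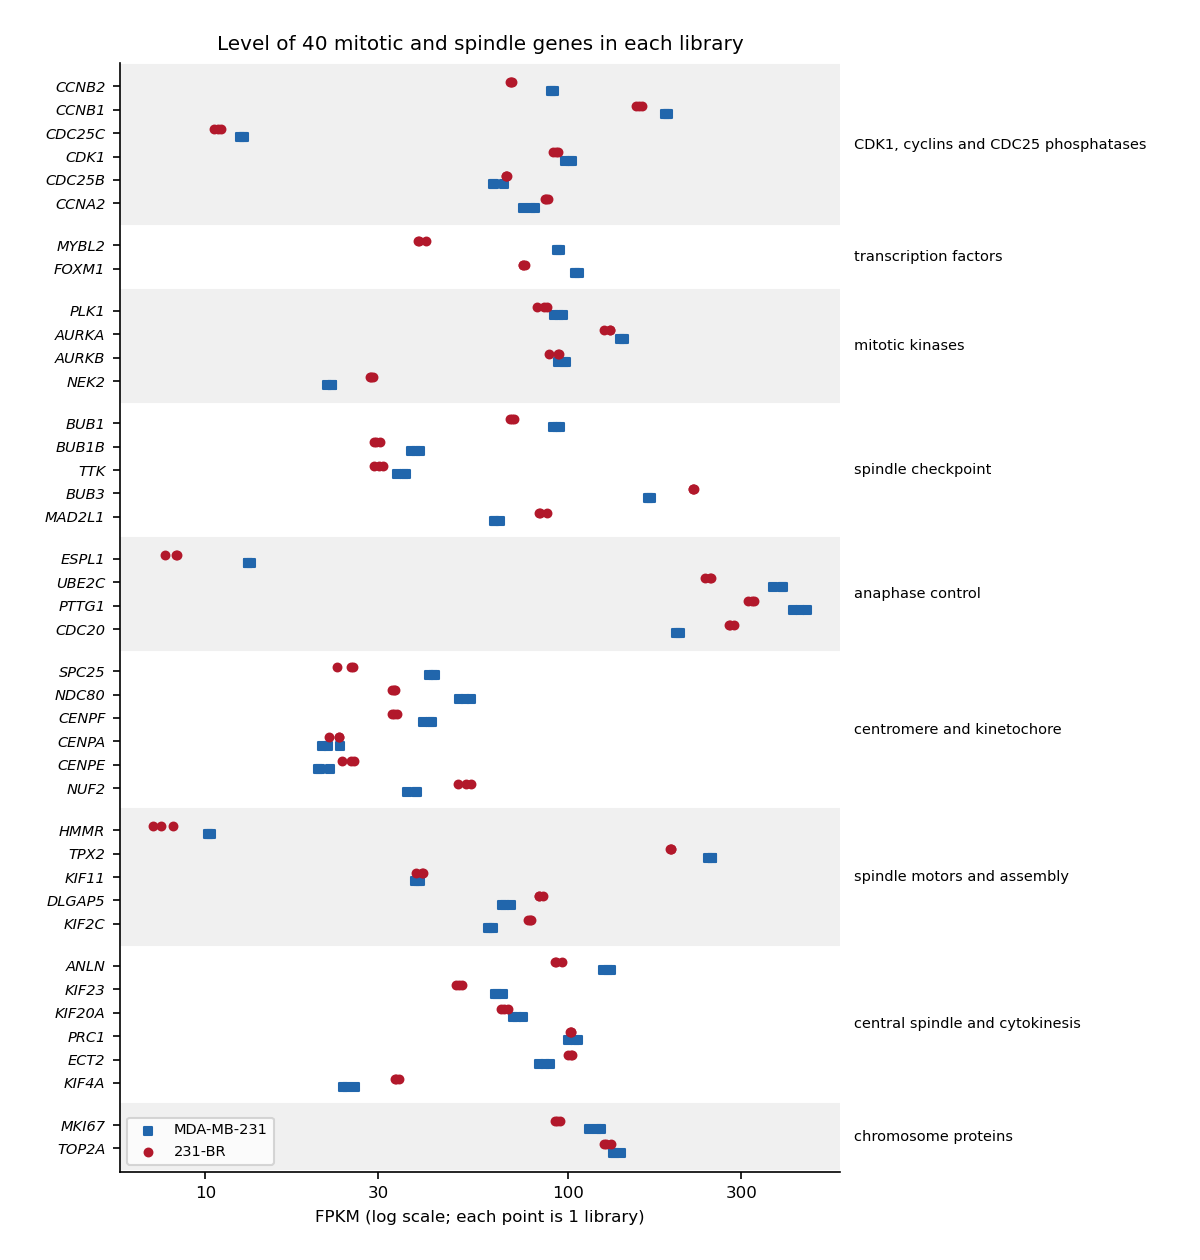
FPKM of the 40 genes on a log axis, with 1 round point for each 231-BR library and 1 square for each MDA-MB-231 library, grouped by role. The levels run from 7.16 FPKM (HMMR) to 456 FPKM (PTTG1), and the 3 libraries of a line lie close together.

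The order of the genes by level was much alike in both lines (Spearman's rho 0.935 across the 40 genes, which are not independent replicates). FPKM is a value per length of transcript, so levels may be set beside each other. PTTG1, which encodes securin, the inhibitor that keeps separase inactive until anaphase, was the most abundant. It was read at 313, 326 and 321 FPKM in 231-BR cells and at 417, 435 and 456 FPKM in MDA-MB-231 cells. HMMR, which encodes a spindle-associated protein that binds hyaluronan, was the least abundant. Its values were 7.57, 7.16 and 8.16 FPKM in 231-BR cells and 10.3, 10.4 and 10.2 FPKM in MDA-MB-231 cells. Both genes were lower in every 231-BR library, with log2 fold changes of -0.45 and -0.43.

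The largest difference was in a transcription factor. MYBL2 (gene identifier 4605, on chromosome 20) encodes B-MYB, which joins the MuvB complex to switch on mitotic genes. It was read at 38.7, 38.8 and 40.5 FPKM in 231-BR cells and at 93.0, 93.5 and 94.7 FPKM in MDA-MB-231 cells. The groups lay far apart, and the log2 fold change was -1.25 (SE 0.026, limma adjusted p = 1.004e-10), a fall to 0.419 times the level in MDA-MB-231 cells. FOXM1, the forkhead factor that takes over the same promoters later in G2, fell by 0.48 on the log2 scale. Its values were 75.3, 76.1 and 75.3 FPKM in 231-BR cells against 105, 105 and 107 FPKM in MDA-MB-231 cells. The MuvB subunits LIN9, LIN37, LIN52 and LIN54 did not share this direction. These were higher in 231-BR cells, with log2 fold changes of 0.42, 0.27, 0.31 and 0.25. Their neighbours on the chromosome, defined below, had median log2 fold changes of 0.43, -0.18, 0.27 and 0.57, in the same order. MYBL2 mRNA stood at 3.29 to 3.71 times that of LIN9 in 231-BR libraries and at 10.6 to 11.4 times that of LIN9 in MDA-MB-231 libraries.

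The promoters of the mitotic genes are shown because B-MYB, FOXM1 and MuvB act through letters shared by many of them. A window of 250 bases before to 50 bases after a transcription start was found for 34 of the 40 genes in RefSeq (GRCh38.p14), and FOXM1, AURKA, BUB3, TTK, UBE2C and TPX2 had no entry. The cell cycle homology region (CHR, TTTGAA or TTCGAA), the element bound by MuvB, was found on either strand in the windows of 25 of the 34 genes (73.5%), against 19.5% of all 27305 genes with a window. It lay between 50 bases before and 50 bases after the start in 64.7% of the 34 and in 6.24% of all genes. The CCAAT box, read on either strand, was found in 79.4% and 39.7%, and CHR with CCAAT in 61.8% and 7.85%. The E2F core (TTCCCGC or TTCGCGC), bound by the factors that act at the start of S phase, was found in 20.6% and 10.2%. No other form of the E2F site was searched for, so these shares hold for the printed letters only. Among the 9417 genes with a window and a mean of at least 1 FPKM in either line, the shares were 15.5% for CHR, 4.95% for CHR near the start, 44.1% for CCAAT, 6.61% for CHR with CCAAT and 17.6% for the E2F core, so that the E2F core was about as frequent among expressed genes. None of these letters contains another motif of the search, and genes with several windows were counted once if any window matched. The CHR was present in 15 of the 19 lower genes with a window and in 7 of the 11 higher genes with a window, so most genes of either direction held it. Shown are parts of the windows of 2 lower and 2 higher genes that lie before the annotated gene, 5′ to 3′, with matches to these motifs in capitals.
MYBL2, lower, chr20:43666864-43667018, plus strand: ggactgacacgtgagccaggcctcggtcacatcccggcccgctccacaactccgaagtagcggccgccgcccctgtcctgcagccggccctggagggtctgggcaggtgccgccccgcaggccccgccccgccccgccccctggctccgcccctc
ESPL1, lower, chr12:53268049-53268298, plus strand: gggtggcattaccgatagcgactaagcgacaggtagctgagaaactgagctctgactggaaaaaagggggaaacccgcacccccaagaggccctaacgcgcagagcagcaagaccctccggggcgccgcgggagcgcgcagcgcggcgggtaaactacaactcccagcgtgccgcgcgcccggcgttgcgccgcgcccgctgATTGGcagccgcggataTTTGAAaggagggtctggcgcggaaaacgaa
CDC20, higher, chr1:43358731-43358954, plus strand: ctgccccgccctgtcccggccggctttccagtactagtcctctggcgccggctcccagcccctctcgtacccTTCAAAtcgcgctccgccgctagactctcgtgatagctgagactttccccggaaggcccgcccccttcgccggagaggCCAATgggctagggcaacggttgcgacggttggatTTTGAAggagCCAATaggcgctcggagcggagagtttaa
KIF4A, higher, chrX:70289854-70290089, plus strand: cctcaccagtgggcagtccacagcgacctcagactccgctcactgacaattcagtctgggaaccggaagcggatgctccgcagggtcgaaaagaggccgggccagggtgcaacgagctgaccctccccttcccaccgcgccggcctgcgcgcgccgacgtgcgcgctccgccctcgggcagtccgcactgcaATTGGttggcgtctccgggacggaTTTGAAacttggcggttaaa
The window of ESPL1 held an inverted CCAAT box that began 48 bases before the start and a CHR that began 31 bases before it. That of KIF4A had the same pair at 58 and 34 bases. In CDC20 a CHR at 65 bases lay between CCAAT boxes at 100 and 55 bases, with a further CHR on the other strand at 178 bases. MYBL2, CENPE and KIF2C were the 3 genes whose windows held none of the motifs, which says only that these letters are not in the window.

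Of CDK1, its cyclins and the CDC25 phosphatases that switch it on, 4 were lower and 2 were higher. CDK1 itself was read at 92.6, 93.8 and 91.0 FPKM in 231-BR cells and at 102, 101 and 97.9 FPKM in MDA-MB-231 cells, a log2 fold change of -0.12 (adjusted p = 0.001529, or 0.1184 with libraries scaled to an equal sum of FPKM). CCNB1, the main mitotic cyclin, fell more, from 185, 188 and 188 FPKM in MDA-MB-231 cells to 160, 157 and 154 FPKM in 231-BR cells (log2 fold change -0.26). CCNB2, a further B-type cyclin, and CDC25C, a phosphatase that activates CDK1 at entry into mitosis, were lower as well, by -0.38 and -0.22. CCNA2, the cyclin of S phase and early mitosis, went the other way. Its values were 86.2, 87.0 and 88.1 FPKM in 231-BR cells against 80.9, 78.9 and 75.1 FPKM in MDA-MB-231 cells (log2 fold change 0.15). The ratio of CCNB1 to CCNA2 mRNA within a library does not change when the whole library is multiplied by a single factor. It lay between 1.74 and 1.85 in the 231-BR libraries, below the 2.29 to 2.51 of the MDA-MB-231 libraries. CDC25B was called higher by 0.08, but its call was lost when any of the 3 231-BR libraries, MDA-MB-231 replicate 1 or MDA-MB-231 replicate 2 was left out, with adjusted p of 0.056 to 0.1066. It was lost as well without the trend (adjusted p = 0.08441), and median-of-ratios scaling left a log2 fold change of 0.002 (adjusted p = 0.9551).

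Of the 4 mitotic kinases 3 had log2 fold changes between -0.15 and -0.07. PLK1, which acts at centrosomes and kinetochores from entry to exit, was read at 82.1, 85.7 and 87.5 FPKM in 231-BR cells and at 91.6, 94.3 and 96.8 FPKM in MDA-MB-231 cells (log2 fold change -0.15, adjusted p = 0.001446). AURKA, the spindle pole kinase, was lower by -0.13. AURKB, the kinase of the chromosomal passenger complex, was not called: 88.8, 93.7 and 94.3 FPKM in 231-BR cells overlapped 93.6, 97.6 and 98.5 FPKM in MDA-MB-231 cells. The 95% confidence interval of its log2 fold change ran from -0.13 to 0.0034. Its partners in the complex differed little: BIRC5 (survivin) and CDCA8 (borealin) were higher by 0.15 and 0.18, and INCENP had a value of 0.06 that did not pass the test (adjusted p = 0.14). NEK2, which separates the centrosomes, was the exception among the 4 kinases, with 28.7, 28.96 and 28.4 FPKM in 231-BR cells above 22.3, 22.3 and 21.6 FPKM in MDA-MB-231 cells (log2 fold change 0.38).

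The spindle checkpoint genes split in opposite directions. BUB1 and BUB1B (BUBR1), kinetochore proteins of the checkpoint, and TTK, the kinase that starts its signal, were lower in 231-BR cells. BUB1 was read at 71.1, 70.1 and 69.1 FPKM in 231-BR cells against 93.2, 94.98 and 90.8 FPKM in MDA-MB-231 cells. MAD2L1 (MAD2) and BUB3, which form the inhibitor of anaphase together with BUBR1 and CDC20, were higher. MAD2L1 stood at 87.2, 83.3 and 83.7 FPKM against 64.8, 62.8 and 62.4 FPKM, and BUB3 at 220, 222 and 221 FPKM against 167, 169 and 166 FPKM. No value of one line fell within the range of the other for any of the 5 genes, as for 78.4% of all genes tested. The log2 fold changes were -0.41 for BUB1, -0.36 for BUB1B, -0.21 for TTK, 0.42 for MAD2L1 and 0.40 for BUB3, with limma adjusted p of at most 0.0002007. Thus the mRNA ratio of MAD2L1 to BUB1B was 2.84 to 2.87 in 231-BR libraries and 1.65 to 1.69 in MDA-MB-231 libraries, and that of BUB3 to BUB1 was 3.10 to 3.20 and 1.78 to 1.83.

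The anaphase genes held 2 of the 5 differences past 1.5-fold and, in CDC20, an increase about equal to that of NUF2 (0.48 for both), which no other of the 40 genes exceeded. CDC20, the activator that the checkpoint holds back, was read at 278, 286 and 279 FPKM in 231-BR cells and at 199, 203 and 201 FPKM in MDA-MB-231 cells (log2 fold change 0.48, SE 0.021, adjusted p = 1.621e-08). UBE2C, the ubiquitin-conjugating enzyme of the anaphase-promoting complex, went down from 368, 388 and 390 FPKM in MDA-MB-231 cells to 239, 248 and 247 FPKM in 231-BR cells (log2 fold change -0.64, SE 0.028, adjusted p = 1.327e-08). ESPL1, which encodes separase, the protease that opens the cohesin rings, was read at 8.31, 8.36 and 7.74 FPKM in 231-BR cells and at 13.1, 13.1 and 13.4 FPKM in MDA-MB-231 cells (log2 fold change -0.69). CDC20 mRNA exceeded UBE2C mRNA in all 3 231-BR libraries, with a ratio of 1.13 to 1.16, and fell short of it in all 3 MDA-MB-231 libraries, with a ratio of 0.516 to 0.540. UBE2S, the second ubiquitin-conjugating enzyme of the complex, was lower by -0.44, and so was FBXO5 (EMI1), its inhibitor, by -0.45. Under quantile normalization UBE2C no longer passed 1.5-fold (log2 fold change -0.46) and CDC20 did (0.61), and with libraries scaled to an equal sum of FPKM UBE2C fell just short of it (-0.58).

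At the kinetochore the contrast lay within a single complex. NDC80, NUF2, SPC24 and SPC25 form the NDC80 complex, the rod that grips the microtubule, with 1 copy of each protein. NDC80 was read at 32.7, 33.2 and 33.2 FPKM in 231-BR cells against 54.2, 52.0 and 50.01 FPKM in MDA-MB-231 cells (log2 fold change -0.65). NUF2, its direct partner, was read at 52.3, 49.8 and 54.1 FPKM in 231-BR cells against 38.1, 35.9 and 38.3 FPKM in MDA-MB-231 cells (log2 fold change 0.48). Their order was therefore exchanged: the ratio of NUF2 to NDC80 was 1.5 to 1.63 in 231-BR libraries and 0.692 to 0.765 in MDA-MB-231 libraries. At the other end of the rod, SPC25 fell from 42.5, 42.9 and 41.3 FPKM to 23.0, 25.2 and 25.6 FPKM (log2 fold change -0.78), while SPC24, not one of the 40 genes, rose by 0.20. The ratio of SPC24 to SPC25 was 0.621 to 0.660 in 231-BR libraries and 0.315 to 0.343 in MDA-MB-231 libraries. The neighbours of SPC24 on the chromosome had a median log2 fold change of 0.72, above that of SPC24 itself.

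The 3 remaining centromere and kinetochore genes among the 40 differed by less than NDC80, NUF2 and SPC25. CENPA, the histone variant that marks the centromere, had 23.3, 23.4 and 22.0 FPKM in 231-BR cells and 23.4, 21.8 and 21.0 FPKM in MDA-MB-231 cells, which overlap (log2 fold change 0.05, 95% confidence interval -0.05 to 0.16, adjusted p = 0.2975). CENPF, a protein of the outer kinetochore, was lower by -0.31. CENPE, the motor that carries chromosomes to the spindle equator, was higher by 0.24.

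**Figure D2:**
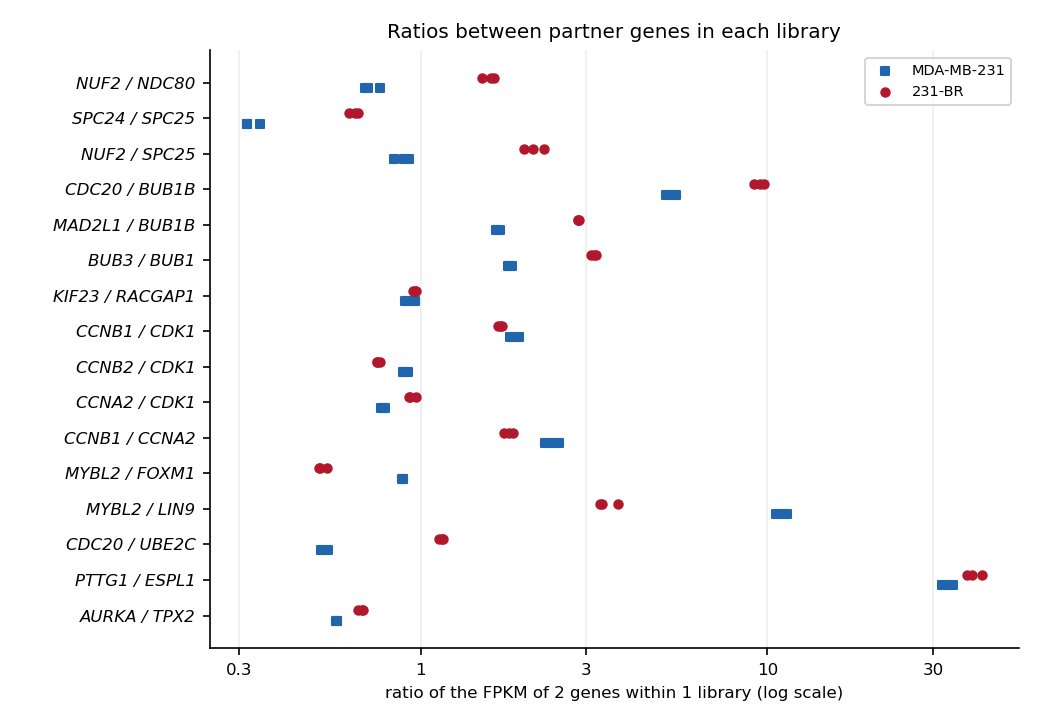
Ratio of the FPKM of a pair of partner genes within each library, on a log axis, for 16 pairs, with round points for 231-BR and squares for MDA-MB-231. The ratio of NUF2 to NDC80 lies above 1 in the 231-BR libraries and below 1 in the MDA-MB-231 libraries, whereas KIF23 to RACGAP1 overlaps.

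The pairs in the plot of ratios were chosen after the values had been seen. They are a description, and no test was made of them.

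Among spindle motors and assembly factors, 2 were higher, 2 were lower and 1 was not called. KIF11 (Eg5), the motor that pushes the spindle poles apart, was not called. It was read at 39.9, 39.6 and 38.1 FPKM in 231-BR cells and at 38.6, 39.1 and 37.9 FPKM in MDA-MB-231 cells, and these values overlapped (log2 fold change 0.02, 95% confidence interval -0.04 to 0.09, adjusted p = 0.4676). TPX2, which activates AURKA on the spindle, was read at 192, 192 and 190 FPKM in 231-BR cells, below 244, 249 and 249 FPKM in MDA-MB-231 cells (log2 fold change -0.37). AURKA fell less than its activator, and the ratio of AURKA to TPX2 was 0.659 to 0.680 in 231-BR libraries and 0.568 to 0.575 in MDA-MB-231 libraries. KIF2C (MCAK), which takes microtubules apart at the kinetochore, and DLGAP5 (HURP), which stabilizes spindle fibres, were higher by 0.36 and 0.32.

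Central spindle and cytokinesis genes again went both ways. PRC1, which bundles the microtubules between the parting chromosomes, was not called, with 101, 102 and 102 FPKM in 231-BR cells and 105, 107 and 99.9 FPKM in MDA-MB-231 cells (95% confidence interval of the log2 fold change -0.09 to 0.03). KIF4A, the motor that PRC1 recruits there, was read at 34.2, 33.6 and 33.3 FPKM in 231-BR cells, above 24.6, 24.0 and 25.8 FPKM in MDA-MB-231 cells (log2 fold change 0.44). KIF23 (MKLP1) was lower by -0.36, and RACGAP1, its partner in the centralspindlin complex, by -0.42. The 2 thus moved together, with a ratio of 0.949 to 0.969 in 231-BR libraries that overlapped the 0.9 to 0.961 in MDA-MB-231 libraries. ECT2, the exchange factor that centralspindlin recruits to start the furrow, was higher by 0.23, whereas ANLN (anillin), the scaffold of the contractile ring, and KIF20A (MKLP2), which brings AURKB to the central spindle, were lower by -0.46 and -0.13. The call of KIF20A was lost with an equal sum of FPKM (adjusted p = 0.1277).

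Of the chromosome proteins, MKI67, which encodes the Ki-67 antigen used to count dividing tumour cells, was read at 95.3, 93.0 and 92.3 FPKM in 231-BR cells against 123, 120 and 114 FPKM in MDA-MB-231 cells. It fell by 0.35 on the log2 scale (SE 0.030, limma adjusted p = 2.109e-06). TOP2A, the topoisomerase that untangles sister chromosomes, was read at 132, 126 and 127 FPKM in 231-BR cells and at 140, 133 and 134 FPKM in MDA-MB-231 cells. The groups did not overlap, and the log2 fold change was -0.08 (adjusted p = 0.01978). This call was lost without 231-BR replicate 2, 231-BR replicate 3 or MDA-MB-231 replicate 1, with adjusted p of 0.0626 to 0.08045, and under quantile normalization (adjusted p = 0.8287). It was lost as well without the trend (limma adjusted p = 0.07978) and with an equal sum of FPKM (adjusted p = 0.7103).

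**Figure D3:**
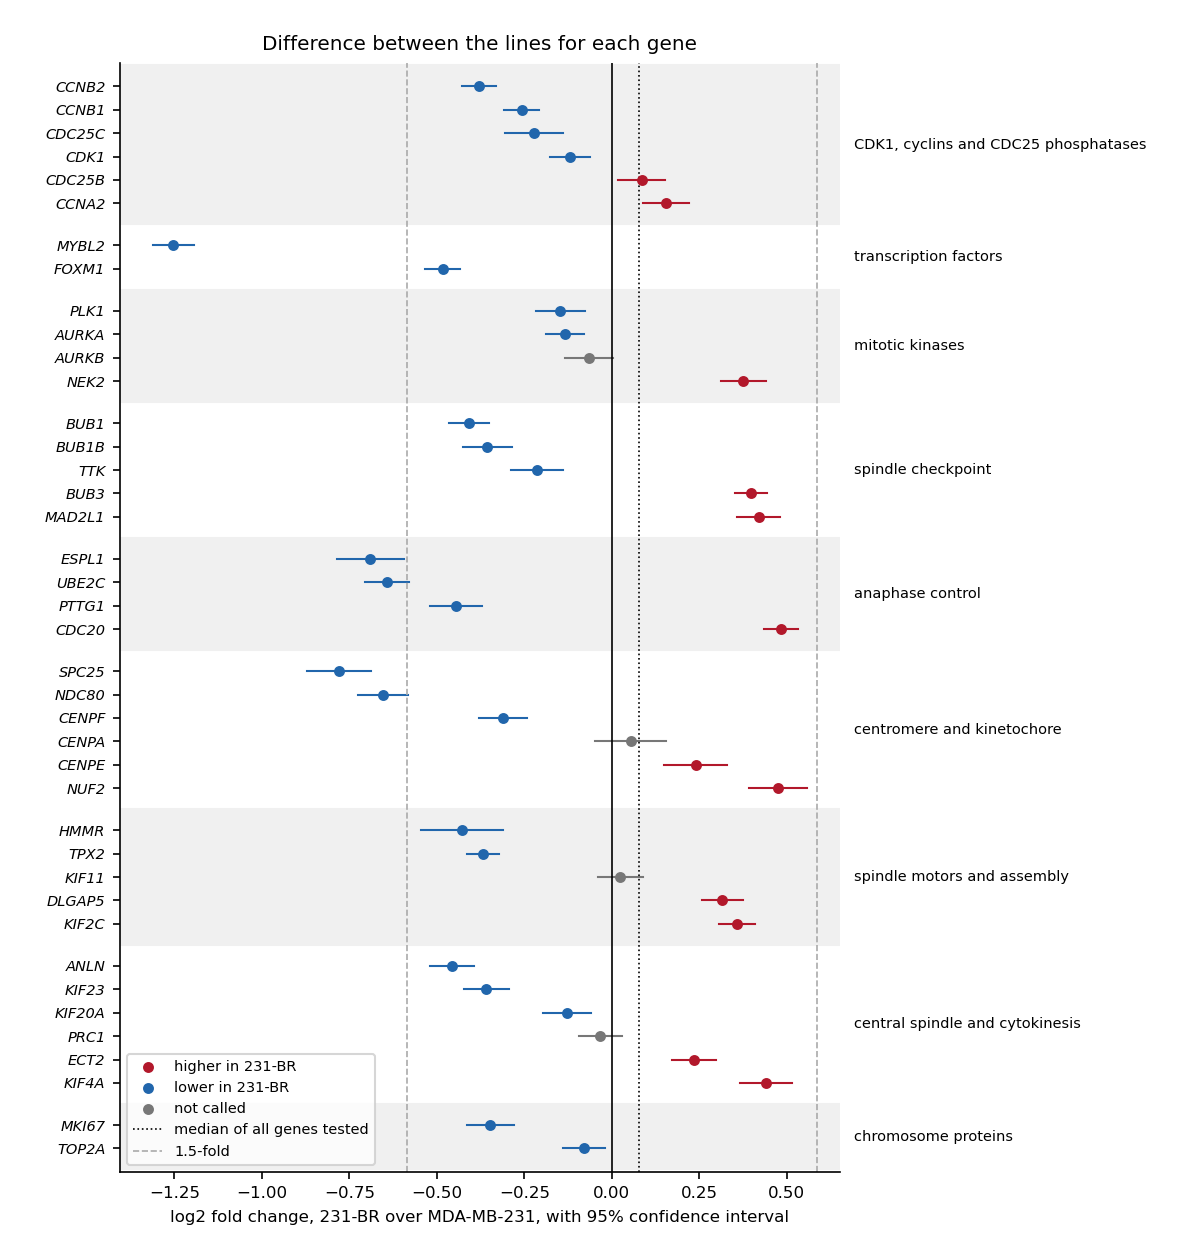
Log2 fold change of each gene in 231-BR over MDA-MB-231 cells with its 95% confidence interval, grouped by role, in red where higher in 231-BR, in blue where lower and in grey where not called. The dotted line is the median of all genes tested (0.08), the dashed lines mark 1.5-fold, and each role except the transcription factors and the chromosome proteins holds genes on both sides of 0.

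Related genes outside the 40 were read for comparison. Of all genes tested, 44.4% were higher and 32.9% were lower. Of 40 other centromere and kinetochore genes 15 were higher, 12 were lower and 13 were not called, with a median log2 fold change of 0.02. This balance changed with the scaling, to 12 higher and 16 lower under median-of-ratios scaling and to 20 higher and 11 lower with an equal sum of FPKM, as did that of all genes, with 5256 higher and 5181 lower and with 6542 higher and 3845 lower. Its median took either sign, at -0.06 and 0.09 under these scalings. Within this list SKA1 and NSL1, of the SKA and MIS12 complexes, were higher by 0.98 and 0.97, and SGO2, a protector of centromeric cohesin, and CENPQ were lower (-0.68 and -0.58). Of 21 condensin and cohesin genes 6 were higher and 8 were lower (median -0.03), or 4 and 13 with a median of -0.12 under median-of-ratios scaling, and with an equal sum of FPKM the median was 0.03. Among them the cohesin subunit RAD21 rose by 0.59 and ESCO1, an acetyltransferase of cohesin, by 0.49, and the condensin subunits NCAPH2 and NCAPD2 were lower by -0.61 and -0.53.

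The anaphase-promoting complex, the ubiquitin ligase that CDC20 activates, had 11 of 17 genes lower and 5 higher, with a median log2 fold change of -0.31. This median was -0.39 under median-of-ratios scaling and -0.24 with an equal sum of FPKM. Its subunits differed in both directions beyond 1.5-fold, as ANAPC10 and ANAPC7 were higher (0.84 and 0.65) and CDC16 and ANAPC15 were lower (-0.64 and -0.60). Of 35 other spindle and cytokinesis genes 18 were lower and 14 were higher (median -0.13, or -0.21 under median-of-ratios scaling, -0.20 under quantile normalization and -0.06 with an equal sum of FPKM). HAUS8, a subunit of the augmin complex that branches spindle microtubules, was read at 35.8, 37.7 and 36.2 FPKM in 231-BR cells against 15.7, 16.2 and 15.6 FPKM in MDA-MB-231 cells, a log2 fold change of 1.20. CKAP2L, a mitotic spindle protein, went the opposite way, with 17.3, 16.5 and 15.8 FPKM in 231-BR cells against 39.7, 40.2 and 36.0 FPKM in MDA-MB-231 cells (log2 fold change -1.22). The neighbours of HAUS8 on the chromosome had a median log2 fold change of 1.01, and those of CKAP2L of -0.27. CIT, the citron kinase of cytokinesis, was higher by 0.74, and CKAP2, a spindle protein, was lower by -0.74.

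Of 20 other regulators of G2 and mitosis 12 were lower and 5 were higher. Their median was -0.26, or -0.34 under median-of-ratios scaling and -0.19 with an equal sum of FPKM. LIN9 and LIN52 led the increases while TROAP and BORA led the decreases (-0.63 and -0.59). PKMYT1, the inhibitory kinase of CDK1, was lower by -0.53, and WEE1, which acts on the same kinase, had a value of -0.07 that did not pass the test (adjusted p = 0.2149). Genes of S phase, the step before, had 25 of 41 lower and 8 higher, with a median of -0.24. That median was -0.33 under median-of-ratios scaling and -0.18 with an equal sum of FPKM. TYMS, the thymidylate synthase that supplies dTMP for replication, was read at 124, 128 and 126 FPKM in 231-BR cells and at 256, 256 and 248 FPKM in MDA-MB-231 cells (log2 fold change -1.0). MCM3, a subunit of the replicative helicase, was lower by -0.79, whereas GINS4 and GINS3, of the same helicase, were higher by 0.73 and 0.52.

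**Figure D4:**
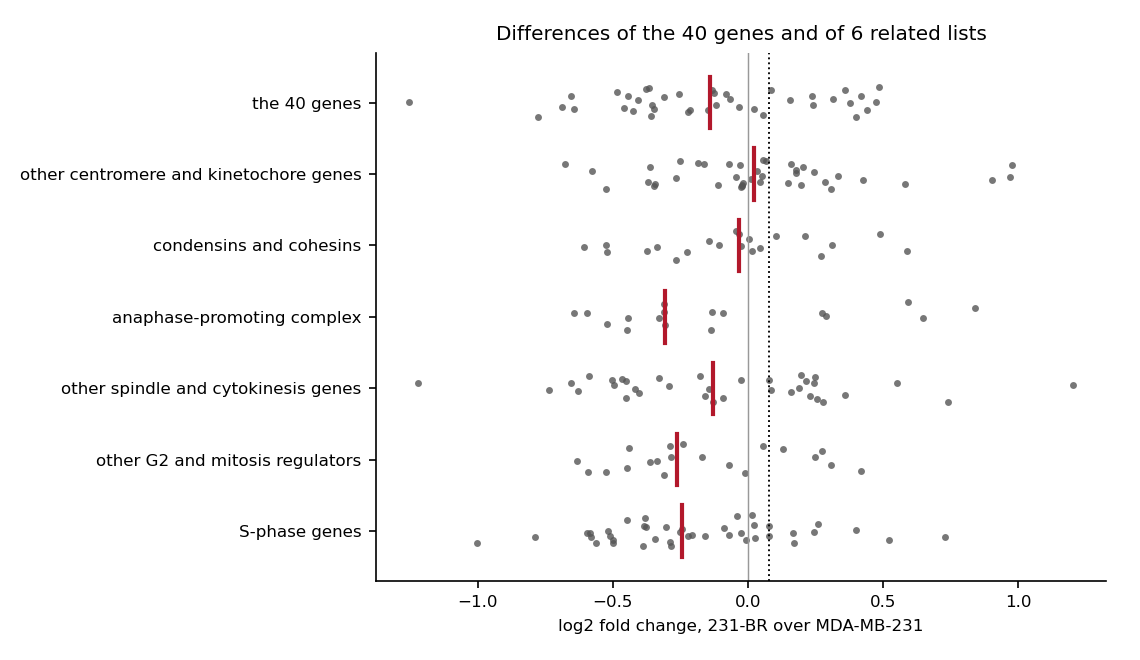
Log2 fold change of the 40 genes and of the genes of 6 related lists, 1 point per gene, with the median of each list as a red bar and the median of all genes tested as a dotted line. The bars lie between -0.31 (anaphase-promoting complex) and 0.02 (other centromere and kinetochore genes), and every list spreads to both sides of 0.

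The direction of a gene often went with that of its neighbours on the chromosome. For each gene the median log2 fold change of up to 40 neighbours with at least 1 FPKM, 20 on either side in RefSeq gene order, was set beside its own value. Across the 40 genes the 2 values had a Spearman's rho of 0.687 and a Pearson's r of 0.703, beside a rho of 0.515 across the 11090 genes placed. Genes are not independent here, since 7 pairs of the 40 lie within 20 places of each other and share neighbours. Of the 12 higher genes 11 had neighbours with a median above 0, CDC25B being the exception, and of the 24 lower genes 18 had neighbours with a median below 0. The median of the neighbours was above 0 for 51.8% of all genes placed, whatever their own direction, so it is not a share among higher genes. Of the 40 genes 30 had the sign of their neighbours, as had 70.8% of all genes placed. Sharing the sign of the neighbours therefore does not set the 40 genes apart.

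All 3 genes on chromosome 4 (CCNA2, MAD2L1 and CENPE) were higher, where the median log2 fold change over the whole chromosome was 0.39. On chromosome 1, with a median of 0.22, 4 of 5 were higher, among them CDC20 and NUF2, whose neighbours had medians of 0.40 and 0.27. All 5 on chromosome 5, among them CCNB1 and PTTG1, were lower (chromosome median -0.07), as were 4 of 5 on chromosome 20, among them MYBL2 and UBE2C (chromosome median -0.14). The directions of most genes on these chromosomes thus went with the chromosome median, CENPF and CDC25B being the exceptions. Called genes also had the sign of the chromosome median on chromosomes 2, 3, 6, 7, 14, 18 and X. On X that median was only 0.04, below the 0.08 of all genes tested. Called genes did not have this sign on chromosome 12 (median 0.07, ESPL1 and FOXM1 lower), 16 (0.09, PLK1 lower) or 17 (0.24, TOP2A lower). The median of chromosome 15 was -0.0005 and gave no direction, and its called genes, CCNB2, KIF23 and BUB1B, were lower. On chromosome 10, with a median of 0.09, MKI67 and CDK1 were lower and BUB3 was higher. NDC80 on chromosome 18 lay among neighbours with a median of -0.49, based on 27 genes. The neighbours of MYBL2 had a median of only -0.16 and those of SPC25 of -0.23, so both lay well below their surroundings. The widest gap between a raised surrounding and a lower gene was at CENPF and MKI67, whose neighbours had medians of 0.43 and 0.34.

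Against their neighbours the 40 genes were mostly lower. In 32 of 40 the log2 fold change was below the median of the neighbours, where 50.2% of all genes placed were, and the median gap was -0.22 for the 40 genes and -0.0021 for all. This was so for 8 of the 12 genes that were higher in 231-BR cells. KIF4A on chromosome X rose by 0.44 among neighbours with a median of 1.01, and CCNA2 by 0.15 among neighbours with a median of 0.59. CDC20, NUF2, BUB3 and CDC25B rose further than their neighbours. Under quantile normalization 26 of the 40 lay below their neighbours. Each related list outside the 40 also had a median below that of its neighbours. The medians were -0.31 and 0.11 for the anaphase-promoting complex and -0.13 and 0.03 for other spindle and cytokinesis genes. Other regulators of G2 and mitosis had -0.26 and -0.03, and S-phase genes -0.24 and -0.07. They lay closer for other centromere and kinetochore genes (0.02 and 0.07) and condensins and cohesins (-0.03 and -0.0034). The trait was thus not particular to the 40.

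**Figure D5:**
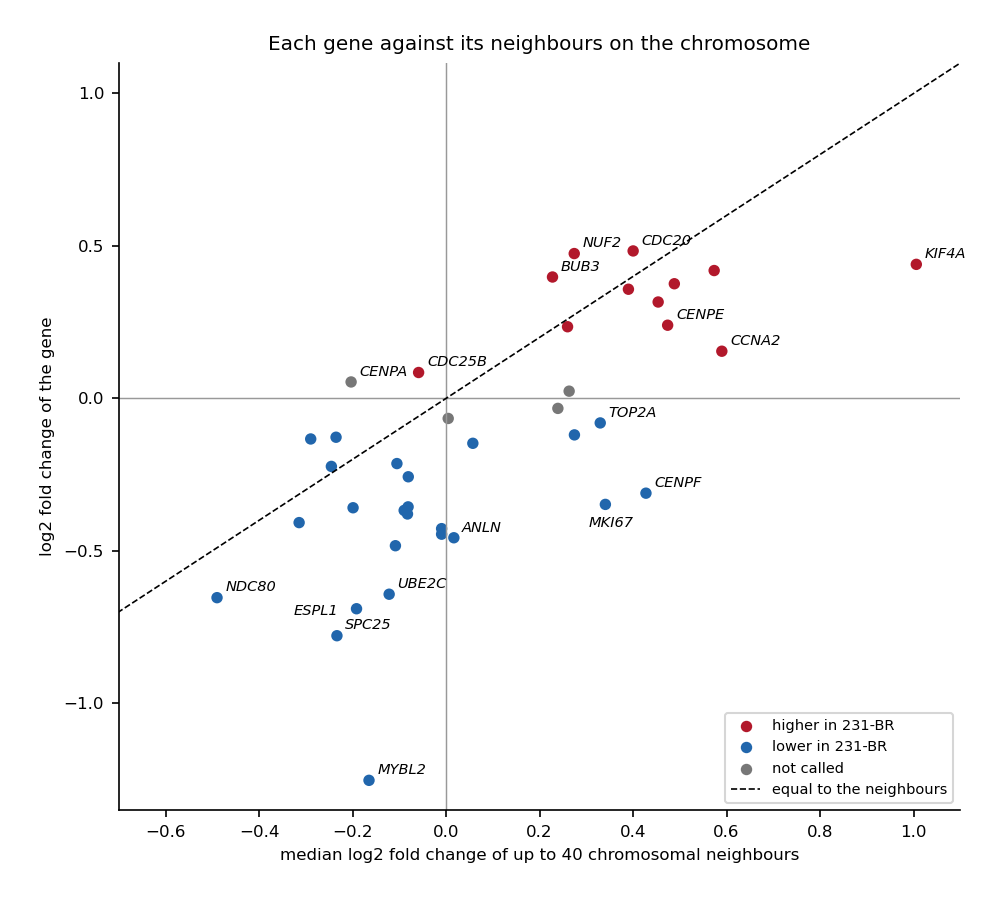
Log2 fold change of each of the 40 genes against the median log2 fold change of its neighbours on the chromosome, coloured by call. Points below the dashed line of equality (32 of 40) are genes lower than their surroundings, MYBL2 being the farthest below it.

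The libraries of a line differed little in these genes. The median SD over 3 libraries, on the log2 scale, was 0.029 for 231-BR and 0.038 for MDA-MB-231, beside 0.035 and 0.044 for genes in the same range of FPKM. No library stood apart in the 40 genes as a whole, whose median deviation from the mean of their line was at most 0.011 above it and 0.018 below it in any library. The deviations of a library went with transcript length to some degree, with Spearman's rho across the 40 genes of 0.60, -0.39 and -0.33 in 231-BR replicates 1 to 3 and 0.33, -0.15 and -0.26 in MDA-MB-231 replicates 1 to 3. Across genes in the same range of FPKM it ran from -0.32 to 0.39. The differences between the lines did not follow length in this way, with a rho of 0.11 across the 40 genes.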

How the data were processed

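The authors made poly(A)-selected libraries of both lines, sequenced them on a BGISEQ-500, removed low-quality reads and deposited FPKM values per gene. Per the labels, HISAT2 2.0.4, Bowtie2 2.2.5 and the build GRCh38.p12 were used. The program that computed the FPKM is not given in the sources used here. Libraries were grouped by the line in the sample titles, since the numbers in the field for the cell line rise from sample to sample. The 6 tables of single libraries equalled the table of the series, and 25 symbols turned into dates were restored from gene identifiers. Depth is unknown, so no counting interval is given.

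Values were set to log2(FPKM + 0.1), and genes under a mean of 0.1 FPKM were dropped, which left 13465. The line was the only term of the fit in limma 3.58.1 (lmFit, eBayes with trend; R 4.3.3). Fold changes are on this scale, which understates those of low genes. Benjamini-Hochberg adjustment covered all these genes. Analyses of tables and figures used Python 3.11.15, pandas 2.3.3 and matplotlib 3.10.9. The fit was tested on simulated data with known changes in a small share of genes, as many up as down. Most genes differed between these lines, so that test does not cover the choice of scaling. The members and lists were chosen with earlier results of these data known. All 40 members are described, those past 1.5-fold, those not called and the best-known of each role with values per library, and of each other list the 2 largest increases and decreases among called genes with a mean of at least 1 FPKM in either line. Partners of members in a complex were named after their values had been seen. Gene order and promoters came from RefSeq (GRCh38.p14). Alternatives were other pseudocounts (1 and 0.01), filters, scalings, no trend, a replicate block and each library left out. Some single results are not given.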

Additional observations from a re-analysis of the deposited data

How the results depend on the processing

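The counts of genes called in either direction, past 1.5-fold and past the criterion of 2 were recomputed under 15 alternatives. MYBL2 met the criterion of 2 in all of them. When libraries were left out one at a time, the 40 genes gave 11 to 12 higher and 23 to 25 lower calls, 5 lower past 1.5-fold, and a median log2 fold change of -0.16 to -0.14. Under quantile normalization 1 gene, CDC20, was higher past 1.5-fold. The median of the 40 genes moved to -0.22 under median-of-ratios scaling and to -0.073 when every library was scaled to an equal sum of FPKM, a scaling chosen after seeing the data, while the median of all genes moved from 0.08 to -0.0018 and to 0.14. Under quantile normalization the median was -0.11 for the 40 genes and -0.06 for all genes, so these medians lay closer together. Of 600 fits of single genes under an alternative, 572 kept direction and call, 15 lost and 7 gained a call, and 6 changed sign, all of these in genes that were not called: CENPA (-0.029 under median-of-ratios scaling and -0.012 under quantile normalization), KIF11 (-0.059 and -0.010), AURKB (0.0013 with an equal sum of FPKM) and PRC1 (0.034 with an equal sum of FPKM). The calls lost were of CDC25B, TOP2A, CDK1 and KIF20A. Libraries with the same number did not vary together (correlations of 0.0873, -0.0396 and -0.106 over 11124 genes), so the numbers give no pairing, and a replicate block gave 12 higher and 25 lower calls, AURKB being added. The cause of these changes was not tested. With FPKM and no counts, the depth behind each value is unknown.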
